A study of Mus musculus with 7 samples.

Results

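Markers of cholangiocytes, the epithelial cells that line the bile ducts, and of ductular cells were examined in the livers of HFD fed mice. The members were 8 genes chosen by symbol, namely Krt7, Krt19, Epcam, Sox9, Cftr, Cldn7, Cldn4 and Prom1, out of 51426 Ensembl genes in the count tables. All 8 were found, each under 1 identifier. Liver RNA was sequenced from 3 WT and 4 TET1 KO male mice with the strain label C57BL/6J, given the high-fat diet (HFD) from 8 weeks of age and kept on it for 16 weeks. The study's TET1 KO line, used beside another whole-body knockout made with Cre, carries the Tet1tm1.1Jae allele. The strain name of this line gives a mixed background. A C57BL/6J background, or backcrossing to it, is stated only for the floxed and Cre lines. The text of the study calls the controls of the HFD fed TET1 KO mice littermates. The knockout was of the whole body, so a change in the liver cannot be told apart from a response to loss of TET1 elsewhere. Each library was made from 1 piece of hepatic tissue that holds all of its cell types. The labels carry no batch and no information on which lobe or how much of the large ducts was sampled.

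Bile ducts make up a small part of the liver. Cholangiocytes are joined by tight junctions, carry a primary cilium and modify bile by secreting chloride, bicarbonate and water. In many liver injuries, strings of small ductular cells expand from the portal tracts, which is known as the ductular reaction. Keratins 7 and 19 are the classical stains for these cells in liver sections, because hepatocytes contain keratins 8 and 18 only. The transcription factor SOX9 directs duct formation in the embryo and is also known at low levels in hepatocytes that border the portal tract, so it is not restricted to ducts. The question here was whether TET1 KO livers differed from WT livers in these markers, gene by gene and mouse by mouse.

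Library sizes lay between 15005277 and 22746138 counts and overlapped between genotypes. Counts were scaled to CPM, a gene's counts relative to the TMM-normalized library size, and 1 CPM corresponded to between 14.2 and 24.1 counts. Replicates of the same genotype differed by more than sampling noise. The labels give a replicate number only, so p-values measure the spread between these libraries. Tet1 itself had between 1 and 4 counts in every liver of either genotype and does not check the labels at this depth. The hepatocyte marker Alb was abundant in both groups (mean 54540 CPM in WT and 51970 CPM in TET1 KO livers). TET1 KO replicate 4 stood apart in the ductular markers, and the values without it are given beside the main ones.

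In short, 2 patterns were seen. Sox9 was higher in each of the 4 TET1 KO livers than in any WT liver. The other 7 members were all highest in TET1 KO replicate 4, while the remaining TET1 KO livers overlapped the WT livers in 6 of them and lay closely above them in Epcam. With edgeR's quasi-likelihood test over all 14754 tested genes, 0 of the 8 members had an adjusted p under 0.05, and the share called over all tested genes was 2.02% (0.874% higher and 1.15% lower). Only 4 members, Krt7, Krt19, Epcam and Sox9, passed the filter on low counts, and 3 of these had an unadjusted p under 0.05 (13.6% of all tested genes had this with a higher level). The log2FC, the log2 of the fold change of TET1 KO over WT livers, was above 0 in all 4, as in 51.1% of all tested genes. Krt7 and Epcam were under the level the filter asks for in WT replicate 3, with 9 and 5 counts, and passed through the TET1 KO livers, so these counts of members are a description only. DESeq2 called 2 members, Sox9 and Epcam, both higher, and called 4.34% of its tested genes higher.

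**Figure D1:**
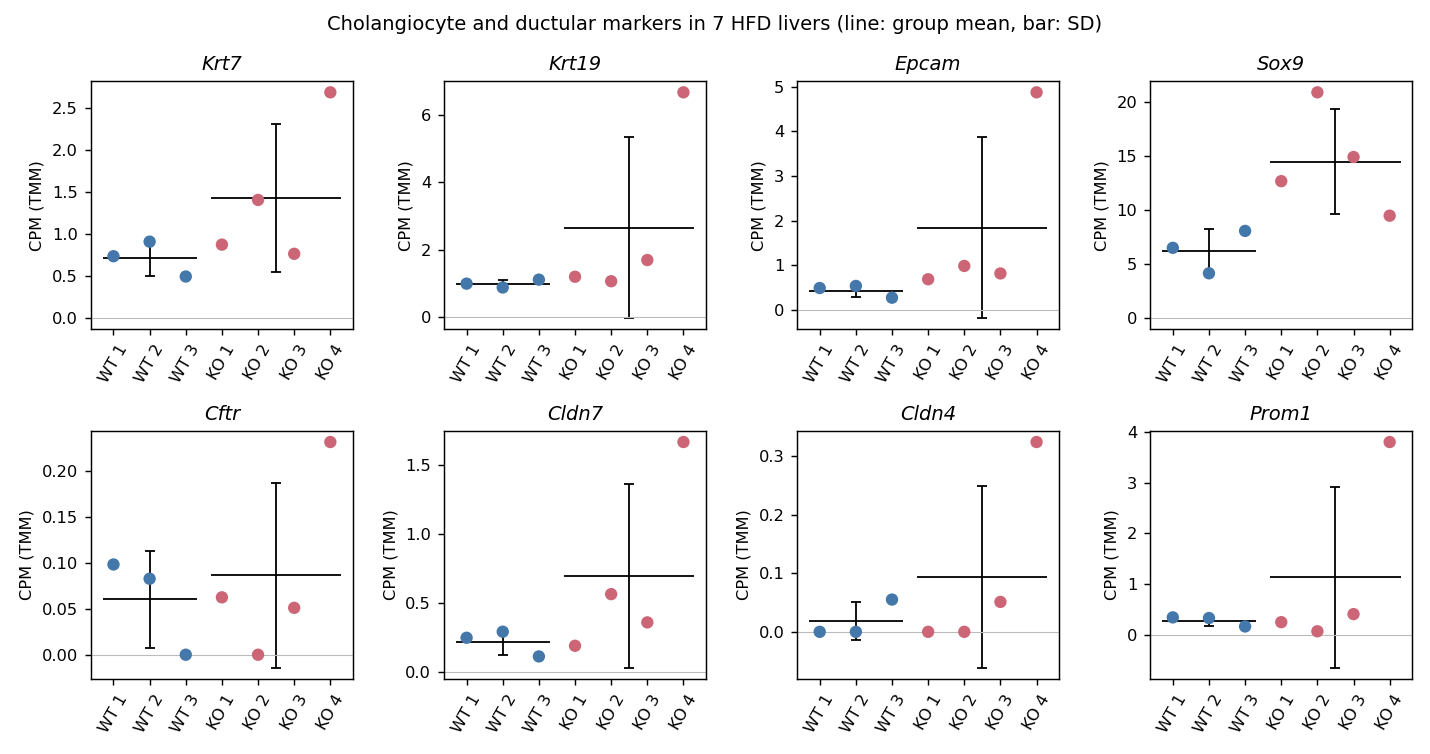
TMM-normalized CPM (y axis, a scale of its own for each gene) of the 8 markers in each of the 3 WT (blue) and 4 TET1 KO (red) livers, with the group mean as a line and the SD as a bar. Krt7, Krt19, Epcam, Cftr, Cldn7, Cldn4 and Prom1 are highest in KO 4 (TET1 KO replicate 4), and Sox9 is above every WT liver in all 4 TET1 KO livers.

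Sox9 (ENSMUSG00000000567, chromosome 11 of GRCm38 from 112782210 to 112787757) was the most abundant member. It was at 6.50, 4.15 and 8.06 CPM in WT replicates 1 to 3, which corresponds to 132, 100 and 146 counts. In TET1 KO replicates 1 to 4 it was at 12.7, 20.9, 14.9 and 9.46 CPM, or 202, 296, 291 and 204 counts. The groups did not overlap, which was the case in this direction for 11.7% of all tested genes. The mean was 6.23 ± 1.97 CPM (SD, n = 3) in WT and 14.5 ± 4.81 CPM (SD, n = 4) in TET1 KO livers, with a log2FC of 1.22 (standard error (SE) 0.29, edgeR adjusted p = 0.0569). This p was above the threshold of 0.05. TET1 KO replicate 4 had the lowest Sox9 level of its group. Without it the log2FC was 1.37 (SE 0.27, edgeR adjusted p = 0.0259), in a fit that called 6.18% of genes and 2.96% as higher. The adjusted p was 0.00286 in DESeq2 and 0.253 in edgeR without WT replicate 2, and 4 of 14 alternative fits called Sox9. TET1 KO replicate 2, where Sox9 was highest, also held genes of fat tissue, with 264 counts of Ucp1 (0 elsewhere), 70 of Plin1 (at most 4 elsewhere) and 60 of Adipoq (at most 9 elsewhere), which were named after their values were seen. Without that liver the Sox9 log2FC was 0.97 (edgeR adjusted p = 0.117), and the part of these genes in the result was not tested. The log2FC stayed between 0.97 and 1.42 over all fits.

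Krt19 (ENSMUSG00000020911, chromosome 11 from 100140810 to 100145926), the keratin most used to stain bile ducts, showed the other pattern. It was at 0.984, 0.871 and 1.10 CPM in the WT livers and at 1.19, 1.06, 1.69 and 6.68 CPM in TET1 KO replicates 1 to 4. The last value rests on 144 counts, against 15 to 33 counts in the other 6 libraries. The log2FC was 1.48 (SE 0.62, edgeR adjusted p = 0.164). Without TET1 KO replicate 4 it was 0.43 (SE 0.34, edgeR adjusted p = 0.422), and the remaining TET1 KO livers averaged 1.31 ± 0.333 CPM (SD, n = 3) against 0.986 ± 0.117 CPM (SD, n = 3) in WT. The genotypes overlapped.

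Krt7 (ENSMUSG00000023039, chromosome 15 from 101412403 to 101427806), the type II keratin that pairs with Krt19 in duct cells, was at 0.738, 0.912 and 0.497 CPM in WT and at 0.877, 1.41, 0.767 and 2.69 CPM in TET1 KO livers. The 2.69 CPM of replicate 4 came from 58 counts, where the other libraries had 9 to 22. Its log2FC of 1.00 (SE 0.48, edgeR adjusted p = 0.206) became 0.46 (SE 0.42, edgeR adjusted p = 0.494) without that liver. Both keratins were thus raised in the same library, Krt19 by 3.96 times over the next highest liver and Krt7 by 1.91 times.

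Epcam (ENSMUSG00000045394, chromosome 17 from 87635979 to 87651127) encodes an adhesion molecule of biliary and other simple epithelia that mature hepatocytes lack. It was at 0.492, 0.539 and 0.276 CPM in WT livers. In TET1 KO replicates 1 to 4 it was at 0.689, 0.986, 0.818 and 4.87 CPM. The genotypes did not overlap, as in 11.7% of all tested genes in this direction. The counts behind the CPM values were low, 5 to 16 in the other 6 libraries and 105 in TET1 KO replicate 4. The log2FC was 2.09 (SE 0.74, edgeR adjusted p = 0.117), and DESeq2 gave 2.06 with an adjusted p of 0.0421. Without TET1 KO replicate 4 it was 0.89 (SE 0.45, edgeR adjusted p = 0.218).

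**Figure D2:**
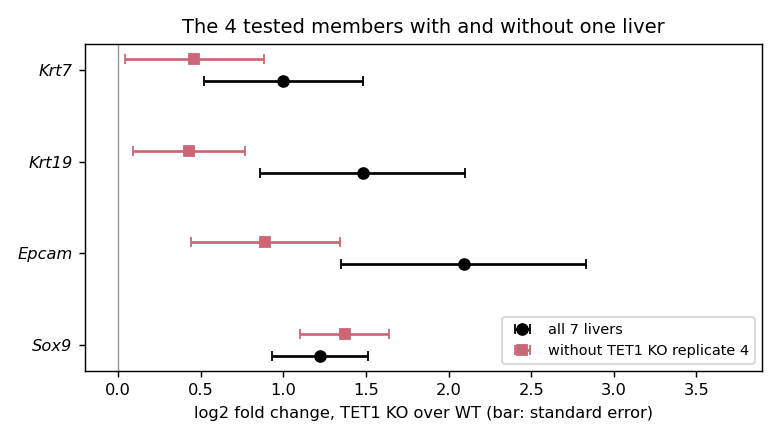
Log2 fold change of TET1 KO over WT (x axis, bar: SE) of the 4 members that passed the filter, from edgeR's fit on all 7 livers (black) and without TET1 KO replicate 4 (red). Krt7, Krt19 and Epcam move toward 0 without that liver, to 0.46, 0.43 and 0.89, and Sox9 moves to 1.37.

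The tight junction proteins claudin 7 and claudin 4 are typical of ductal epithelium and are scarce in hepatocytes. Cldn7 (ENSMUSG00000018569, chromosome 11 from 69964779 to 69967886) had 5, 7 and 2 counts in the WT libraries, 3, 8 and 7 counts in TET1 KO replicates 1 to 3 and 36 counts in TET1 KO replicate 4. Cldn4 (ENSMUSG00000047501, chromosome 5 from 134945123 to 134946934) had at most 1 count in 6 libraries and 7 counts in TET1 KO replicate 4 (exact Poisson 95% interval 2.81 to 14.4, counting error only). Neither passed the filter on low counts. An exact two-sided permutation test on CPM over the 35 splits of the 7 mice gave p = 0.257 for Cldn7 and p = 0.886 for Cldn4, where the smallest possible p is 0.0286. Without TET1 KO replicate 4, the TET1 KO livers averaged 0.370 ± 0.188 CPM (SD, n = 3) for Cldn7 against 0.216 ± 0.0937 CPM (SD, n = 3) in WT, and 0.0171 CPM for Cldn4 against 0.0184 CPM in WT.

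Prom1 (ENSMUSG00000029086, chromosome 5 from 43993621 to 44102047) encodes the membrane protein CD133, which has been used to isolate liver progenitor cells. It had 7, 8 and 3 counts in WT and 4, 1, 8 and 82 counts in TET1 KO replicates 1 to 4. Its level of 3.80 CPM in the last liver was 9.30 times the next highest, the largest such ratio among the members. The genotype means were 0.281 ± 0.0998 CPM (SD, n = 3) and 1.13 ± 1.79 CPM (SD, n = 4), with p = 0.8286 in the exact permutation test. The SD of the TET1 KO livers was larger than their mean. Without replicate 4 they averaged 0.243 ± 0.170 CPM (SD, n = 3), close to WT.

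Cftr (ENSMUSG00000041301, chromosome 6 from 18170687 to 18322770), the chloride channel through which cholangiocytes drive fluid secretion, was close to the limit of detection. Its counts were 2, 2 and 0 in WT and 1, 0, 1 and 5 in TET1 KO replicates 1 to 4 (exact permutation test on CPM, p = 0.857). Without replicate 4 the TET1 KO mean was 0.0379 CPM, against 0.0605 CPM in WT. At this depth no difference between the genotypes was detectable for Cftr or Cldn4. The pseudogene Gm15595 lies inside Cftr in the RefSeq annotation, and how reads in the overlap were counted is not given in the sources used here.

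The members can be ordered by their level only per length, as CPM per kilobase of exon. In WT livers Sox9 was highest at 1.51 ± 0.476 (SD, n = 3), followed by Krt19 at 0.532 ± 0.0629 and Epcam at 0.214 ± 0.0688. Cldn7 (0.111), Krt7 (0.102) and Prom1 (0.0621) came next. The length used, a union of all annotated exons, was 7049 bases for Krt7 and 1855 for Krt19. The place of Krt7 in the order depends on this length, and a shorter transcript would move it up. Cldn4 (0.0102) and Cftr (0.00779) were last. The WT livers did not overlap between Sox9 and Krt19, between Krt19 and Epcam, or between Prom1 and Cldn4, whereas the other neighbours in this order overlapped. In TET1 KO replicate 4 the order changed at the top, with Krt19 at 3.60, Epcam at 2.39 and Sox9 at 2.29 CPM per kilobase.

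Summed over the 8 members, the livers held 9.40, 7.17 and 10.3 CPM in WT and 15.9, 24.9, 19.0 and 29.7 CPM in TET1 KO replicates 1 to 4. Most of this was Sox9, which made up between 57.8% and 83.6% of the sum in 6 livers and 31.8% in TET1 KO replicate 4. The other 7 members summed to 2.90, 3.03 and 2.21 CPM in WT livers and to 3.26, 4.09, 4.14 and 20.3 CPM in TET1 KO livers. The value of TET1 KO replicate 4 was 4.89 times that of the next highest liver and 6.20 times the mean of the other 6. The remaining TET1 KO livers, at 3.83 ± 0.496 CPM (SD, n = 3), also lay above the WT livers at 2.71 ± 0.442 CPM (SD, n = 3), by a smaller margin. These sums are descriptions and were not tested. In a piece of whole liver, a change in the number of duct cells and a change in the RNA of each cell cannot be told apart.

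**Figure D3:**
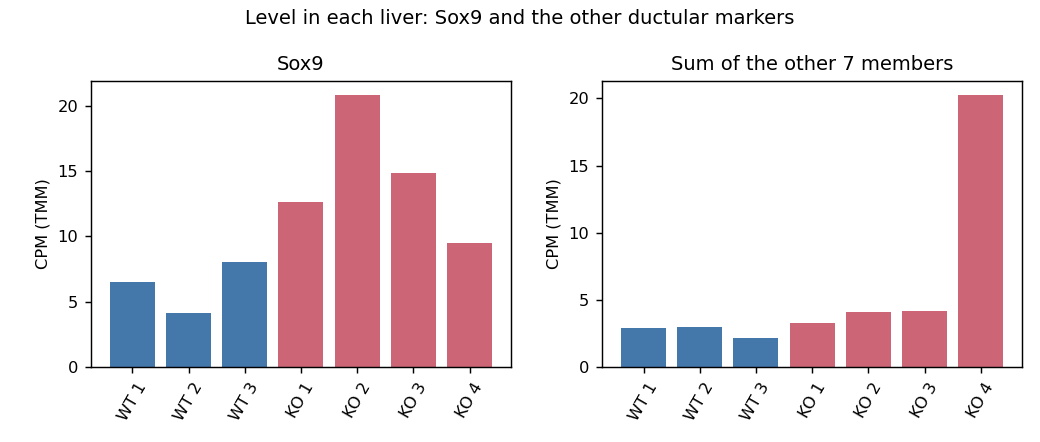
CPM of Sox9 (left) and the summed CPM of the other 7 members (right) in each liver, with bars from 0, WT in blue and TET1 KO in red. Sox9 is at 9.46 CPM in KO 4, the lowest of the TET1 KO livers, whereas the other members sum to 20.3 CPM there and to at most 4.14 CPM in any other liver.

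Of the 4 tested members, 3 were highest in TET1 KO replicate 4, where 8.15% of the tested genes had their highest value. Krt19, Epcam, Cldn4 and Prom1 were at least 3 times above each other liver there with at least 5 counts, which held for 0.700% of the 18131 genes with 5 or more counts in a library. This limit was set after the values were seen and Cldn4 reached 5 counts in that liver only, so the share is given as a description. Cldn7 was just under this limit, at 2.96 times.

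**Figure D4:**
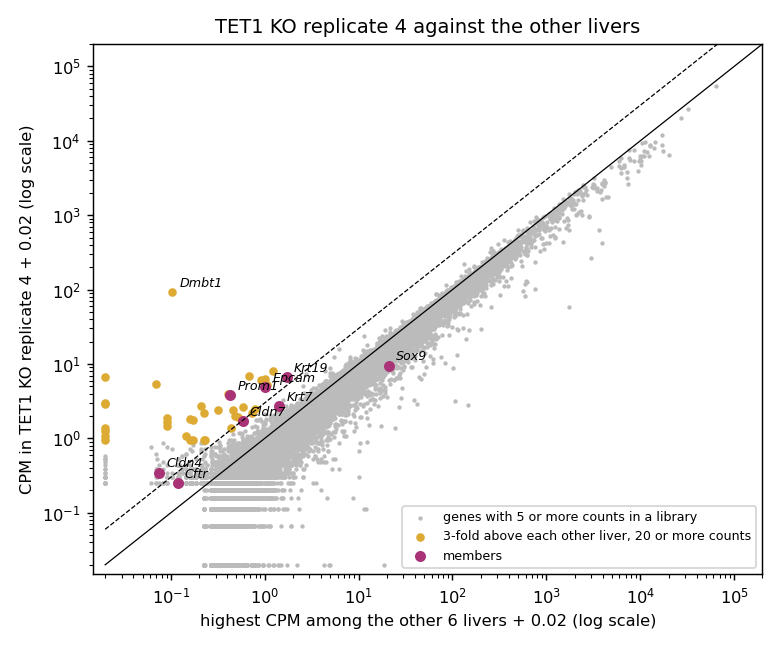
CPM in TET1 KO replicate 4 (y axis) against the highest CPM among the other 6 livers (x axis), both with 0.02 added and on log scales, for genes with at least 5 counts in a library (grey), with the members in purple and the 38 genes at least 3-fold above each other liver with at least 20 counts in yellow. The solid line marks equal levels and the dashed line 3-fold. Sox9 lies below the solid line and the other 7 members above it, with Krt19, Epcam, Prom1 and Cldn4 above the dashed line.

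The promoters of 5 members with this second pattern are shown because TET1 oxidizes methylated cytosine at CG dinucleotides. They are the 250 bases before the RefSeq start in GRCm38.p6, written along the gene, with every CG in capitals. Prom1 is not shown because its entries in the table begin inside the gene, and Krt19 because it has no entry there.
Krt7 promoter, chr15:101412153-101412402, plus strand: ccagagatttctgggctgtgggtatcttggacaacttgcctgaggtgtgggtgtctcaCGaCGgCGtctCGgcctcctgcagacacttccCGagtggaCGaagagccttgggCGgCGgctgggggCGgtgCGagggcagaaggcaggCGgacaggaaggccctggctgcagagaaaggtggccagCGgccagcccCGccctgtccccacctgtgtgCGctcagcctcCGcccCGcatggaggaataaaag
Epcam promoter, chr17:87635729-87635978, plus strand: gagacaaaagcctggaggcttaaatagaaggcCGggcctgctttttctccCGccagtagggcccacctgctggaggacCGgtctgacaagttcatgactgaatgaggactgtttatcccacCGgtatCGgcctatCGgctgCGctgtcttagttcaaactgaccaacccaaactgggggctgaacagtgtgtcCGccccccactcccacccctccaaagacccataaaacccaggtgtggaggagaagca
Cftr promoter, chr6:18170437-18170686, plus strand: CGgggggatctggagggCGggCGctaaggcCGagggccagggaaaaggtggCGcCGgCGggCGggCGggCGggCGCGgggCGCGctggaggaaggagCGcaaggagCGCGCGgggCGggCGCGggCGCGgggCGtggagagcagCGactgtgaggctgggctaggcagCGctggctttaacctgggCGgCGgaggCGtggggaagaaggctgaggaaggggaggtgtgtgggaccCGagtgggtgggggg
Cldn7 promoter, chr11:69964529-69964778, plus strand: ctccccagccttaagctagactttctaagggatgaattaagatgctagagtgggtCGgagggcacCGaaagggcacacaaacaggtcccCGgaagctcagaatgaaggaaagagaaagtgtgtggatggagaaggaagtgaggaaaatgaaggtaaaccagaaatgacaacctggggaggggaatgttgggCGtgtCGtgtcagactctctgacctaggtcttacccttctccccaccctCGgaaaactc
Cldn4 promoter, chr5:134946935-134947184, minus strand: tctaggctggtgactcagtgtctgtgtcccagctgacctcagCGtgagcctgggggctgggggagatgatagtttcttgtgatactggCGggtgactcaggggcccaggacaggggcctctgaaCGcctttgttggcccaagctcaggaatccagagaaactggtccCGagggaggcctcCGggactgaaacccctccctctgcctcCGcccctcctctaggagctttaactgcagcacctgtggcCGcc
Cftr had 30 CG dinucleotides in this window, Krt7 16, Epcam 8, Cldn4 7 and Cldn7 6, where the median of 32851 RefSeq promoter windows was 6. At least as many as in Cftr were found in 5.94% of all windows, as in Krt7 in 25.4% and at least as many as in Cldn7 in 50.4%. The GC box GGGCGG, read on both strands, occurred 6 times in Cftr, 4 times in Krt7 and once each in Epcam and Cldn4, and 32.7% of all windows held it. The TATA box TATAAA (12.4% of all windows) and the grainyhead-type motif AACCNGTT (1.79% of all windows), also read on both strands, were not in any of the 5. DNA methylation was not measured in these libraries.

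Further genes linked to ducts, junctions and their regulators were examined in 7 lists with 90 genes, of which 67 passed the filter on low counts. The lists are not restricted to bile duct genes. WT means were 1496 CPM for Clu and 72.0 CPM for Cldn2, against 0.986 CPM for Krt19. In whole liver, a change in a listed gene cannot be placed in a cell type. Of the 67 genes, 1 was higher and 3 were lower in the TET1 KO group at the same threshold. This was 5.97% of those tested, against 2.02% of all tested genes. The lists were chosen with earlier results of these data known, so the shares are a description only. The median log2FC of the 67 genes was 0.05, against 0.01 over all tested genes. The genotypes did not overlap in any of the 4 called genes, where 11.7% of all tested genes were higher and 10.8% lower without overlap, and a gene high in 1 liver alone would hardly be called.

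The higher gene was Cdh1, which encodes E-cadherin, the adhesion molecule of epithelial cell contacts that is found in bile ducts and in periportal hepatocytes. It was at 2.71, 3.23 and 6.24 CPM in WT and at 20.7, 15.2, 12.9 and 16.2 CPM in TET1 KO livers, a log2FC of 2.01 (SE 0.29, edgeR adjusted p = 0.00958). Without TET1 KO replicate 4 it was also 2.01 (edgeR adjusted p = 0.0120), and without WT replicate 2 the adjusted p was 0.0771. Cdh1 belongs to the list of genes known in ductular reaction, in which 11 of 16 genes were tested, 1 was higher and 0 were lower (median log2FC -0.18). The most abundant genes of this list, Clu and Lcn2, had log2FCs of -0.37 (SE 0.28) and -2.03 (SE 1.31), and the genotypes overlapped in both. Lcn2 was at 30.6, 16.7 and 764.3 CPM in WT livers, and its log2FC turned to 1.47 (edgeR adjusted p = 0.464) without WT replicate 3. That liver was also more than 3-fold above every other for the acute phase genes Saa1, Saa2 and Orm2, named after their values were seen. Spp1, which encodes osteopontin, was above WT in every TET1 KO liver but not called (log2FC 0.58, edgeR adjusted p = 0.0860), and is named after its values were seen. Another 4 genes of the list, Dmbt1, Muc1, Tspan8 and Mmp7, were at least 3-fold higher in TET1 KO replicate 4 than in each other liver. Dmbt1, a mucin-like glycoprotein of epithelial surfaces, had 1999 counts there and at most 2 elsewhere, and is again named by its values. Muc1 had 150 counts against 4 to 12.

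Aqp4 was lower in the list of biliary transport and bile sensing. This water channel was at 4.09, 4.89 and 2.98 CPM in WT and at 0.564, 0.845, 0.512 and 0.974 CPM in TET1 KO livers, a log2FC of -2.45 (SE 0.30, edgeR adjusted p = 0.00435), and -2.66 (edgeR adjusted p = 0.00554) without TET1 KO replicate 4. In this list 9 of 15 genes were tested, 0 were higher and 1 was lower (median log2FC 0.03). The water channel Aqp1 and the anion exchanger Slc4a2, its most abundant genes, had log2FCs of -0.19 and 0.22. The receptor for secretin, Sctr, had at most 6 counts in any library.

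Tead1, a DNA-binding partner of YAP, was lower as well, at 14.9, 17.1 and 18.4 CPM in WT and 6.20, 6.76, 6.65 and 7.89 CPM in TET1 KO livers (log2FC -1.28, SE 0.15, edgeR adjusted p = 0.00388, and -1.36 with an adjusted p of 0.00554 without TET1 KO replicate 4). Of the YAP and TEAD list, 9 of 10 genes were tested, 0 were higher and 1 was lower (median -0.25). Of the 9 genes, 7 had a log2FC below 0, and the list summed to 164.7 to 180.7 CPM in WT and 146.9 to 163.5 CPM in TET1 KO livers. Yap1, the most abundant of them, had a log2FC of -0.14, and Amotl2 had 0.56 (edgeR adjusted p = 0.0655), with 0.63 and an adjusted p of 0.0391 without TET1 KO replicate 4. Wwtr1, which encodes the YAP paralog TAZ, and the YAP target Ccn2 were below WT in every TET1 KO liver, at -0.73 and -0.81 (edgeR adjusted p = 0.0548 and 0.0848, DESeq2 adjusted p = 0.00728 and 0.0434).

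Among the other claudins and junction proteins, 14 of 18 genes were tested, 0 were higher and 1 was lower (median 0.17). Cldn2, a claudin that forms pores for cations and water, was at 52.8, 91.2 and 72.1 CPM in WT and at 18.7, 35.2, 30.6 and 42.6 CPM in TET1 KO livers (log2FC -1.18, SE 0.26, edgeR adjusted p = 0.0440, and -1.36 with an adjusted p of 0.0235 without TET1 KO replicate 4). Leaving out WT replicate 2 or 3 or TET1 KO replicate 2 or 3 each raised the adjusted p above 0.05, to at most 0.227. Cldn3 had a log2FC of 0.80 (SE 0.20, edgeR adjusted p = 0.0648), with 0.90 and an adjusted p of 0.0349 without TET1 KO replicate 4. F11r had 0.00.

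**Figure D5:**
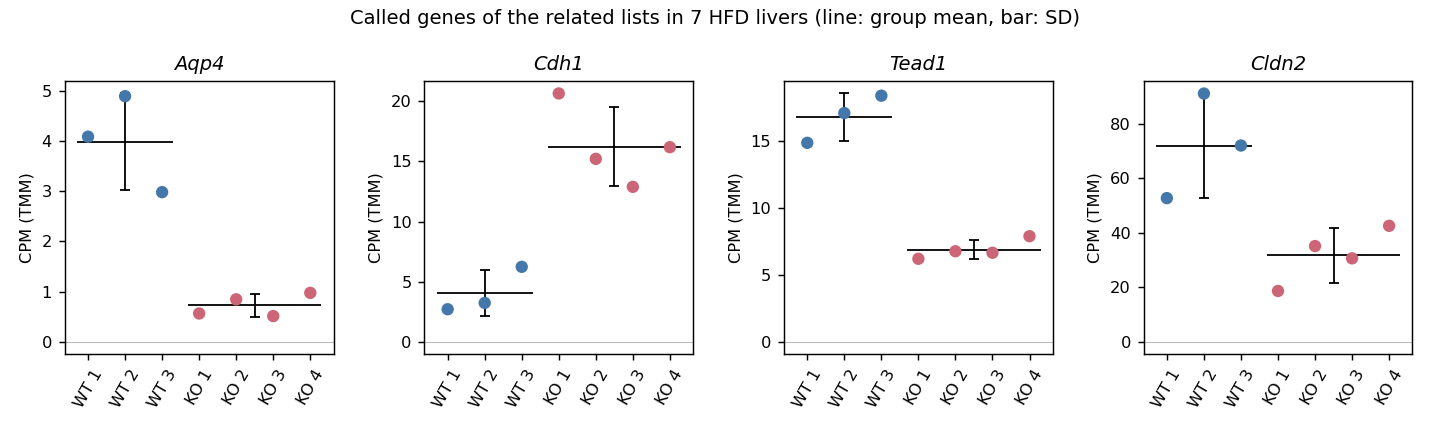
TMM-normalized CPM (y axis, a scale of its own for each gene) of the 4 genes of the related lists with an adjusted p under 0.05, in 3 WT (blue) and 4 TET1 KO (red) livers, with the group mean as a line and the SD as a bar. Cdh1 is higher in all TET1 KO livers, Aqp4, Tead1 and Cldn2 are lower, and KO 4 lies with the other TET1 KO livers or nearest to them in each.

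The regulators of the ductal fate and cilium proteins had 12 of 14 genes tested and 0 called (median 0.42). Onecut2 and Foxa2, the most abundant, had log2FCs of 0.25 and 0.05. Ehf, an epithelial transcription factor, had 47 counts in TET1 KO replicate 4 and 6 to 13 elsewhere. The Notch list, the pathway that specifies duct cells, had 10 of 13 genes tested and 0 called (median 0.07), with Notch1 at 0.17 and Notch2 at -0.31. The list of simple epithelial keratins, of which hepatocytes share Krt8 and Krt18, had 2 of 4 genes tested and 0 called (median 0.02). Krt8 had a log2FC of -0.25 and Krt18 of 0.30.

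Markers of other cells were read beside these results. The 8 mesothelial markers, which include genes of cells on the liver capsule that also contain Krt7 and Krt19, summed to between 1.44 and 12.6 CPM in WT and between 1.69 and 9.42 CPM in TET1 KO livers, with 6 tested and 0 called. The most abundant, Upk3b and Gpm6a, had log2FCs of -0.85 and -0.91, and Upk3b was at 0.01 without WT replicate 2. TET1 KO replicate 4 was within the WT range of this sum. Of the 8 gallbladder and gut markers, Muc6, Tff2 and Muc13 had 18, 9 and 10 counts in TET1 KO replicate 4 and at most 3 elsewhere, while Muc5b was at 0 in all libraries (2 of 8 tested, 0 called, Fabp2 at -0.78 and Tff3 at 2.27). The Tff3 value rests on TET1 KO replicate 2, at 6.13 CPM against at most 0.993 CPM in any other liver, and without it Tff3 did not pass the filter. Their part in the high ductular markers of this liver was not tested. Of the pancreatic acinar markers, Cpa1, Ctrb1 and Pnlip had at most 7 counts and Amy2a5 and Try5 were at 0. Cela1 was the 1 gene of 7 tested and was higher (log2FC 1.85, edgeR adjusted p = 0.00913, 0.0723 without WT replicate 2 and 0.0110 without TET1 KO replicate 4). Cela2a, which was not tested, had 2, 1 and 2 counts in WT and 8, 3, 11 and 12 counts in TET1 KO livers, without overlap. The stellate cell and portal fibroblast markers had 10 of 10 tested, 0 higher and 1 lower, Fbln2, an extracellular matrix protein (log2FC -1.68, edgeR adjusted p = 0.0176, and 0.0251 without TET1 KO replicate 4). Of the 10, 7 had a log2FC below 0 and the median was -0.11, with Dcn at -0.11, Reln at -0.10, and the collagens Col1a1 at -0.96 and Col3a1 at -0.99 (edgeR adjusted p = 0.0874 and 0.0853, DESeq2 adjusted p = 0.0234 and 0.0181). The endothelial markers (7 of 7 tested), the Kupffer cell markers (6 of 6) and the hepatocyte markers (7 of 7) had 0 called, with Stab2 at -0.08, Clec4g at -0.02, Clec4f at 0.02, Csf1r at -0.13, Alb at -0.07 and Ttr at 0.10 on the log2 scale. The endothelial markers had a median log2FC of -0.26 with 6 of 7 below 0, among them Lyve1 at -1.08 and Vwf at -0.79 (edgeR adjusted p = 0.0778 and 0.171), and summed to 145.5 to 150.5 CPM in WT and 118.7 to 144.0 CPM in TET1 KO livers. Apoa1, among the hepatocyte markers, was above WT in every TET1 KO liver, at 1.10 on the log2 scale (edgeR adjusted p = 0.0818, DESeq2 adjusted p = 1.67e-06). The Kupffer cell markers summed to 227.5 CPM in TET1 KO replicate 4, against 120.7 to 171.0 CPM in the other TET1 KO livers and up to 223.4 CPM in WT.

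The genes outside the members whose pattern over the 7 mice was nearest to the summed members were Fgfr1, Dact2, Plekha4, Hist2h3c1 and Slc43a1. Nearness was the root mean square difference of centred log2 CPM, which was between 0.17 and 0.27 for these genes and 0.75 at the median of 13193 genes compared. Fgfr1, a receptor for fibroblast growth factors, was at 4.23, 3.36 and 5.57 CPM in WT and at 7.01, 11.1, 8.64 and 10.6 CPM in TET1 KO livers. Unlike Sox9, it was not lowest in TET1 KO replicate 4 within its group.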

How the data were processed

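Counts were deposited by the authors as 1 table per mouse, as raw read counts per Ensembl gene without normalization. Per the submitters' processing notes, Trimmomatic 0.36, GSNAP, featureCounts 1.5.3 and the GRCm38 build were used, with roles not stated. The annotation release and the strand setting are not given in the sources used here, so antisense and overlapping genes remain uncertain. Tables were joined by Ensembl identifier, since 26 symbols had been turned into dates in a table, and 5 repeated entries were left out. Groups and replicate numbers came from the sample labels.

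The tests were run with edgeR 4.0.16 under R 4.3.3 (filterByExpr, TMM, glmQLFit and glmQLFTest without covariates), fitted on all genes, and the 14754 tested genes were adjusted by the Benjamini-Hochberg method. A gene was called at an adjusted p under 0.05. The SE is the log2FC over the square root of F. DESeq2 1.42.0 was the alternative test, and both tools were tested on simulated counts. Members under the filter were compared by an exact two-sided permutation test. Lengths are unions of exons in GENCODE M1, and coordinates and promoters are those of RefSeq on GRCm38.p6. Of the 8 members, 6 had an entry in the promoter table. For likeness, 0.1 CPM was added to the genes compared, which had a mean of at least 1 CPM.

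The alternatives were DESeq2, RLE size factors, library size only, 2 other filters, robust dispersions, a block for the replicate number, an adjusted p under 0.1 and leaving out each mouse. The members and lists were chosen with earlier results of these data known. The genes named are the members, the called genes of each list, the 2 most abundant tested genes of lists with fewer than 2 called, the 5 nearest genes and Tet1. Spp1, Sctr, Wwtr1, Ccn2, Ocln, Marveld2, Apoa1, Lyve1, Vwf, Col1a1, Col3a1, Muc5b and the acinar genes other than Cela1 fall outside this rule and were named after their values were seen. The limits of 3-fold with 5 or 20 counts, and the genes named for TET1 KO replicate 4, were chosen after the values were seen. Replicates carry counting error and the spread between mice, and intervals cover counting error only.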

Additional observations from a re-analysis of the deposited data

Results flagged for a closer look

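Within the 4 TET1 KO livers, 76 genes and summed lists were examined for a liver far from the other 3 (the gap to its neighbour over the whole range of the 4, set against Dixon's 95% critical value). Such a case was seen in 20, with TET1 KO replicate 4 as the far liver in 18. Chance alone gives about 1 in 20, but the list genes below other than Notch1, Tff3 and Krt8, and all further genes, were picked because they were high in that liver, so these numbers are not read against chance. Among the members it was the highest liver for Epcam (0.929), Prom1 (0.909), Krt19 (0.888) and Cldn4 (0.842), and for the sum of the 7 members other than Sox9 (0.948). In the lists it was the highest for Dmbt1 (1.00), Tff2 (1.00), Mmp7 (0.962), Muc1 (0.958), Tspan8 (0.907) and Muc13 (0.865), and the lowest for Notch1 (0.881). Among further genes at least 3-fold above each other liver it was the highest for Spink4 (1.00), Duox2 (1.00), Ltf (0.965), Sftpd (0.957), Plet1 (0.881) and Cxcl5 (0.852). Tff3 was far above the rest in TET1 KO replicate 2 (0.882), at 6.13 CPM, and Krt8 far below in TET1 KO replicate 1 (0.853), at 72.9 CPM.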

How the results depend on the processing

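Of the members, 0 were called lower in any fit. The number called higher was 0 in the fit reported, 2 in DESeq2, and 1 with no filter on low counts, with the replicate block, without TET1 KO replicate 4 and at an adjusted p under 0.1, so that leaving out each mouse gave 0 to 1. Sox9 was called in DESeq2 (log2FC 1.20), with no filter (1.19), with the replicate block (1.38) and without TET1 KO replicate 4 (1.37), and Epcam in DESeq2 (2.06). Krt7 and Krt19 were called in no fit. Over the fits that each left out a mouse, the log2FC was 0.97 to 1.42 for Sox9, 0.46 to 1.22 for Krt7, 0.43 to 1.72 for Krt19 and 0.89 to 2.36 for Epcam. The summed CPM of the members was higher by 13.5 in TET1 KO livers, and by 5.23 when Sox9 was left out of the sum. The latter rests on TET1 KO replicate 4, without which the sum without Sox9 was 3.83 CPM in TET1 KO and 2.71 CPM in WT livers. In the related lists, 1 gene was higher and 3 lower, against 4 and 5 in DESeq2, 5 and 5 with the replicate block and 7 and 5 at an adjusted p under 0.1, and 0 to 5 higher and 2 to 3 lower with a mouse left out. Over all tested genes, 129 were higher and 169 lower, against 633 and 699 in DESeq2, 245 and 347 with no filter, 671 and 656 with the replicate block, 841 and 825 at an adjusted p under 0.1, and 107 and 312 with library size only, where 25.5% of the called genes were higher in place of 43.3%. Leaving out a mouse gave 16 to 427 higher genes, the lowest without WT replicate 2 and the highest without TET1 KO replicate 4, and 21 to 464 lower. The cause was not tested. The replicate numbers are not shown to pair the mice, since deviations from the group means correlated at 0.21, -0.12 and -0.10 for numbers 1 to 3 and not every liver correlated best with its own number. TET1 KO replicate 4 has no WT partner, so the block gives it no weight in the contrast. Among other named genes, none of them called, the sign changed for Lcn2 and Upk3b as given above, and for Foxa2, Reln, Dcn, Clec4g, Clec4f, Csf1r, Alb and Ttr, which had small log2FCs, in at least 1 fit. At these depths, Cftr and Cldn4 could not be compared.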

Other observations

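At least 20 counts and a level at least 3-fold above each other liver were found for 38 genes in this liver, including the members Krt19, Epcam and Prom1. The same limits gave 23 genes in TET1 KO replicate 1, 3 to 13 in TET1 KO replicates 2 and 3, and 3 to 15 in the WT livers. By counts, the first genes were Dmbt1 (1999 counts, at most 2 elsewhere), the chemokine Cxcl5 (174, at most 17), the mucin Muc1 (150, at most 12) and Spink4 (145, and 0 elsewhere). They were followed by Krt19, Sftpd (134, at most 15), the antimicrobial protein lactoferrin Ltf (129, at most 16), the epithelial oxidase Duox2 (116, at most 1), Plet1 (113, at most 21) and Epcam. Below them, Gabrp (65) and Chil4 (62) had 0 counts in every other library. The 38 genes were of mixed kinds and also held Cnn1 and Flnc, which are known from muscle, and the sperm protamines Prm1 and Prm2. These genes were chosen for their level in this liver, so the values are a description.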
